A study of Mus musculus with 8 samples.

Results

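Ctgf, Cyr61, Ankrd1, Myof, Gadd45a, Axl, Ajuba, Crim1, Nuak2 and Dlc1 are known transcriptional targets of the coactivator YAP and of the TEAD factors that bind DNA. These 10 genes were taken by name from the 48709 genes of each table, and all 10 were found. The data are RNA sequencing of islets from C57BL/6 mice aged 1 year, of 2 genotypes with 2 libraries each. In β-Tead1-KO the loss of Tead1 is, by its label, one of β-cells, and Flox/Flox islets carry floxed Tead1 as the control. Each library had been run on 2 lanes, which were summed. The design text speaks of 3 samples pooled in a library, but the descriptions show only 1 or 2 numbers for each, so the count of animals behind a library is not known. What drives the deletion is not given in the sources used here. The p-values set the genotype difference against the spread between the 2 libraries of each genotype, with information shared over genes.

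In the Hippo pathway, a kinase cascade ending in LATS phosphorylates YAP and its relative TAZ and keeps them out of the nucleus. When the cascade is low, YAP and TAZ bind TEAD factors on DNA and switch on genes for secreted matrix proteins, receptors and regulators of the cytoskeleton. Ctgf and Cyr61 are the most widely used readouts of this activity. YAP is scarce in mature mouse β-cells, while endothelial and mesenchymal cells express it. Whole islets hold all of these cells, and in such bulk RNA fewer cells of a type and less RNA per cell cannot be told apart.

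The promoters of 7 of the 10 genes (all but Ctgf, Nuak2 and Dlc1) were matched in the RefSeq table of GRCm38.p6, which covers 250 bases before to 50 after the start of each gene. The core of the TEAD site, GGAATG or its reverse complement CATTCC, was present in 5 of the 7 windows, those of Cyr61, Ankrd1, Axl, Ajuba and Crim1, and in 14.7% of the 32851 windows in the table. The AP-1 site TGANTCA, which reads the same on both strands, was in 0 of the 7 windows and in 7.81% of all. The windows of the 2 genes that rose, Myof and Gadd45a, are shown beside those of Cyr61 and Ankrd1, which hold the core, with the core in capitals and the gene's strand read 5′ to 3′. All 4 genes lie on the minus strand, with windows at chr19:38043528-38043827 (Myof), chr6:67037358-67037657 (Gadd45a), chr3:145649936-145650235 (Cyr61, listed by RefSeq as Ccn1) and chr19:36119795-36120094 (Ankrd1).
Myof: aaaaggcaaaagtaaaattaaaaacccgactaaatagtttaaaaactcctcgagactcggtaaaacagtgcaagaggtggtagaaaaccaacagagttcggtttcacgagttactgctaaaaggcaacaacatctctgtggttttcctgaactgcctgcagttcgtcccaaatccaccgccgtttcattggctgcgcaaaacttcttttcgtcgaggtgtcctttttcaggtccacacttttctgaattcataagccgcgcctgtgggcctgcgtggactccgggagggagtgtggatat
Gadd45a: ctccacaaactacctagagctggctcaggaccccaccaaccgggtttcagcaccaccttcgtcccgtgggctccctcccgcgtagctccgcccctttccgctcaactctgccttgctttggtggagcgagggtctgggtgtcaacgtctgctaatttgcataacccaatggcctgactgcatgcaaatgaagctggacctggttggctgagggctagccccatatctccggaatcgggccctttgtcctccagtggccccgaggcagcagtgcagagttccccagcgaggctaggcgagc
Cyr61: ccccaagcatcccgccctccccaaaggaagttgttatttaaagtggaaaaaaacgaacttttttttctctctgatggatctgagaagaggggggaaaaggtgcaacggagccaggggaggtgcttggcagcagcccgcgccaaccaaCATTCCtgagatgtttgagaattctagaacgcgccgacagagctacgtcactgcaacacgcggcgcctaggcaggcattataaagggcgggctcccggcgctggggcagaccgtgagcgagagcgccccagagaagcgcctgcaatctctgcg
Ankrd1: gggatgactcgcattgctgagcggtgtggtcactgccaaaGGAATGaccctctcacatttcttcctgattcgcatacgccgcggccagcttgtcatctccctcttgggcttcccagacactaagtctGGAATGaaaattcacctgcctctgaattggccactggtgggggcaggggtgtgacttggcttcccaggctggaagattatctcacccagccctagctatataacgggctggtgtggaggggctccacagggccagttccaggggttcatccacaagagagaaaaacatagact
Counted from the start of the gene, the core lay at -103 in Cyr61 and at -210 and -123 in Ankrd1. Its letters were not in the windows of Myof and Gadd45a. A match describes letters and is not a measured binding site.

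Exon reads totalled 22352518 and 26387280 in β-Tead1-KO libraries 1 and 2, against 21938244 and 14069569 in Flox libraries 1 and 2. A pair of values of a genotype is that of its libraries 1 and 2. Ins1, Ins2 and Iapp, the genes of insulin and of the peptide secreted with it, were the 3 most abundant of 8 β-cell markers in every library. Tead1 exon reads were not reduced in β-Tead1-KO, at 137 and 163 CPM in β-Tead1-KO, against 101 and 124 CPM in Flox (CPM, exon reads relative to the TMM-scaled library total), and counts over whole genes cannot resolve a deleted exon, so the deletion was not checked by them. Flox library 2 stood apart. Its 7 immediate early genes (Fos, Fosb, Jun, Junb, Egr1, Ier2 and Atf3, which respond within minutes to handling of tissue) summed to 475 CPM, where the β-Tead1-KO libraries had 5886 and 6809 CPM and Flox library 1 had 6484 CPM. Introns took 29.4% and 38.0% of exon and intron reads in β-Tead1-KO, against 28.8% and 43.1% in Flox. Acinar markers summed to 401 and 3494 CPM in β-Tead1-KO, against 784 and 2697 CPM in Flox, the higher in library 2 of each genotype, and 0 of 5 tested passed in edgeR, DESeq2 or at an unadjusted p below 0.05. Values without Flox library 2 stand beside the result of each of the 10 targets that was tested.

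Of the 10 targets, Myof and Gadd45a rose in β-Tead1-KO islets and none fell. The filter on low counts left 9 of the 10, all but Ankrd1. Of these, 2 of 9 were called higher (edgeR, adjusted p below 0.05), where 1.76% of all 15014 tested genes were called higher and 1.6% lower. At an unadjusted p below 0.05, 4 of the 9 differed, where 16.8% of all tested genes did. DESeq2 and limma-voom called the same 2 genes, where they called 3.76% and 1.37% of all genes higher. In 7 of the 9, all but Ajuba and Dlc1, both β-Tead1-KO libraries lay above both Flox libraries, an order found in 23.9% of all tested genes. The median log2 fold change of the 9 was 0.62, against -0.011 over all tested genes.

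The calls of Myof and Gadd45a needed both β-Tead1-KO libraries. Without β-Tead1-KO library 1 or 2, 0 of the 9 were called, where 0.388% and 0.289% of all genes were called higher; at an unadjusted p below 0.05 the counts were 4 and 4, where 9.55% and 7.78% of all genes lay below it. The spread in those fits came from the Flox pair, and the lone library was assumed to vary like it. In fits without a Flox library the spread came from the β-Tead1-KO pair, and the lone Flox library was assumed to vary like that pair. Without Flox library 1 or 2, 3 of the 9 were called, with Cyr61 and with Ctgf added to Myof and Gadd45a, where 7.35% and 3.23% of all genes were called higher. The same 2 genes passed with no filter (1.11% of all genes higher), with at least 1 CPM in every library (1.76%), in edgeR's legacy mode (1.63%), on lane 1 (1.95%) and on lane 2 (1.65%).

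**Figure D1:**
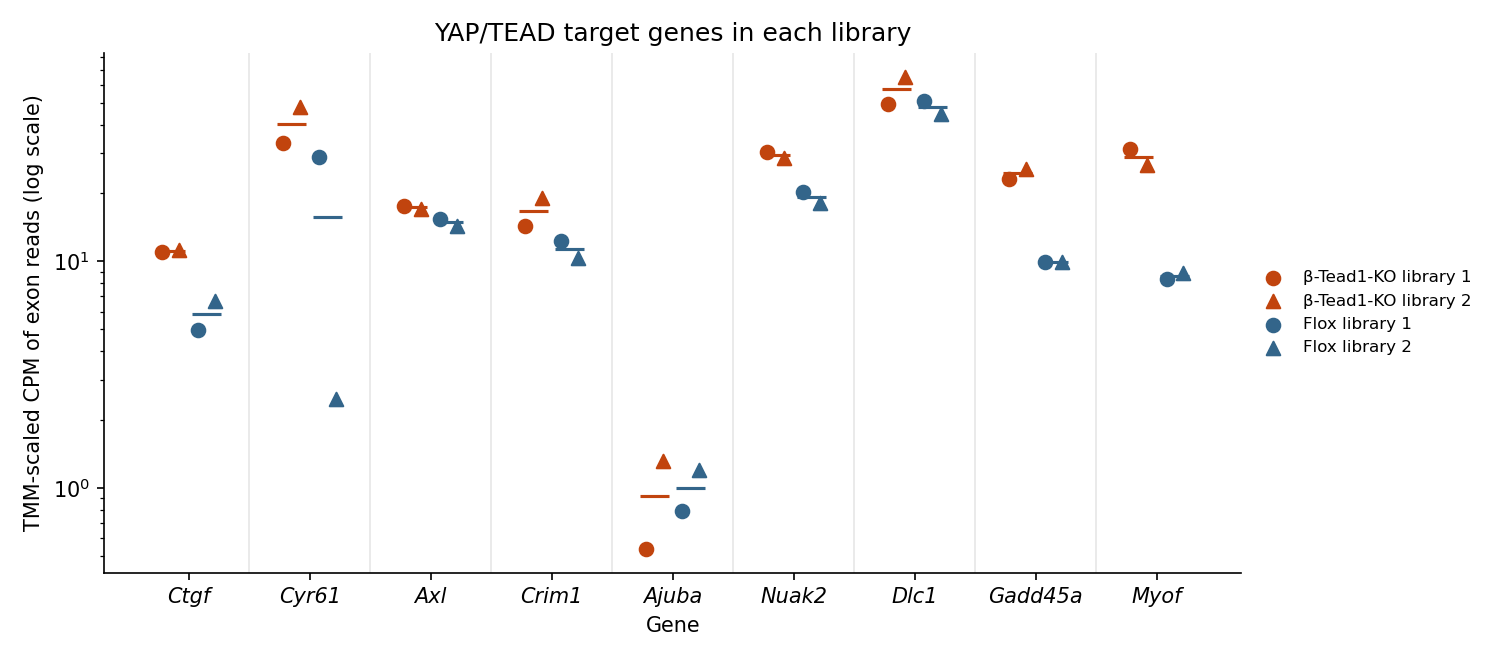
TMM-scaled CPM of exon reads (log scale) of 9 target genes in each library, with β-Tead1-KO left of Flox for each gene, circles for library 1, triangles for library 2 and a bar at the mean of each genotype; Ankrd1, with 0 reads in Flox, is not drawn. Myof and Gadd45a show a wide gap between genotypes, and Cyr61 in Flox library 2 (2.47 CPM) lies far below the other 3 libraries.

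Myof encodes a ferlin that takes part in membrane repair and in the recycling of receptors, and had the largest log2 fold change of the 9 genes. It (ENSMUSG00000048612, on the minus strand of mm10 chromosome 19 from 37899036 to 38043577) had 31.4 and 26.5 CPM in β-Tead1-KO, against 8.31 and 8.89 CPM in Flox. The genotypes did not overlap, and the libraries of a genotype lay close together. The log2 fold change was 1.75 (standard error 0.19, 95% interval 1.28 to 2.22, edgeR adjusted p = 0.0126) with n = 2 per genotype, a 3.37-fold higher level. These values rest on 700 and 707 exon reads in β-Tead1-KO against 179 and 126 in Flox, all of them unique. Without β-Tead1-KO library 1 or 2 the log2 fold change was 1.65 and 1.89, and neither passed in edgeR (adjusted p = 0.0933 and 0.0768). Without Flox library 2 it was 1.80.

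Gadd45a, a stress-induced protein that slows the cell cycle and aids DNA repair, had 23.2 and 25.6 CPM in β-Tead1-KO, against 9.89 and 9.87 CPM in Flox. The Flox libraries were nearly equal, and 99.6% of all tested genes had a wider gap between them. The log2 fold change was 1.30 (standard error 0.18, 95% interval 0.86 to 1.75, edgeR adjusted p = 0.0242) with n = 2 per genotype, a 2.47-fold higher level. The gene (ENSMUSG00000036390, on the minus strand of mm10 chromosome 6 from 67035096 to 67037457) overlaps E230016M11Rik on the other strand. How strand was used in counting is not given, so reads of the pair cannot be told apart. The partner was assigned 229 exon reads over the 4 libraries, against 1553 for Gadd45a. By library the partner had 44 and 97 in β-Tead1-KO and 29 and 59 in Flox. Gadd45a had 517 and 683 in β-Tead1-KO and 213 and 140 in Flox. Without β-Tead1-KO library 1 or 2 the log2 fold change of Gadd45a was 1.40 and 1.25, and the call was lost in edgeR (adjusted p = 0.140 and 0.205). It was 1.30 without Flox library 2.

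The matricellular proteins Ctgf and Cyr61, secreted members of the CCN family, did not pass the test. Ctgf (ENSMUSG00000019997, on the plus strand of mm10 chromosome 10 from 24595442 to 24598683) had 10.9 and 11.2 CPM in β-Tead1-KO, against 4.97 and 6.70 CPM in Flox. Each β-Tead1-KO value exceeded each Flox value, with a log2 fold change of 0.93 (standard error 0.24, 95% interval 0.33 to 1.53, edgeR adjusted p = 0.122). Of its exon reads in Flox library 2, 77.9% were unique, where β-Tead1-KO had 93.9% and 93.0% and Flox library 1 had 95.3%. On unique exon reads alone, Ctgf had 11.2 and 11.5 CPM in β-Tead1-KO, against 5.13 and 5.80 CPM in Flox. This log2 fold change of 1.05 passed narrowly (edgeR adjusted p = 0.0490), making 3 of 9 genes called on these reads, where 2.43% of all were called higher. On all exon reads the log2 fold change of Ctgf was 1.16 without Flox library 2 and 0.74 without Flox library 1. It was 0.98 and 0.93 without β-Tead1-KO library 1 or 2. Ctgf also missed in DESeq2 (adjusted p = 0.0783), in limma-voom (adjusted p = 0.115) and on junction reads (edgeR adjusted p = 0.0906).

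Cyr61 (ENSMUSG00000028195, on the minus strand of mm10 chromosome 3 from 145646976 to 145649981) had 33.1 and 47.7 CPM in β-Tead1-KO, against 28.8 and 2.47 CPM in Flox. Flox library 1 was close to β-Tead1-KO library 1, while Flox library 2 was the low one, with 35 exon reads. The gap of 11.7-fold between the Flox libraries was exceeded by 0.426% of all tested genes. The log2 fold change was 1.36 (standard error 0.94, 95% interval -0.96 to 3.67, edgeR adjusted p = 0.545). It was 0.49 without Flox library 2 and 4.04 without Flox library 1, so 1 control library set its size.

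All 7 immediate early genes were lowest in that same library. Fos had 2090.0 and 2043 CPM in β-Tead1-KO, against 2023 and 101 CPM in Flox, and Egr1 had 1554 and 2246 CPM in β-Tead1-KO, against 1470.2 and 152 CPM in Flox. Atf3 had 76.9 and 86.8 CPM in β-Tead1-KO, against 165 and 0.987 CPM in Flox. The ratio of Flox library 1 to library 2 was 11.7 for Cyr61, and ran from 6.88 for Junb to 168 for Atf3 over the 7 genes. Of these 7 genes 0 passed in edgeR, DESeq2 or at an unadjusted p below 0.05. Their part in the Cyr61 result was not tested.

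**Figure D2:**
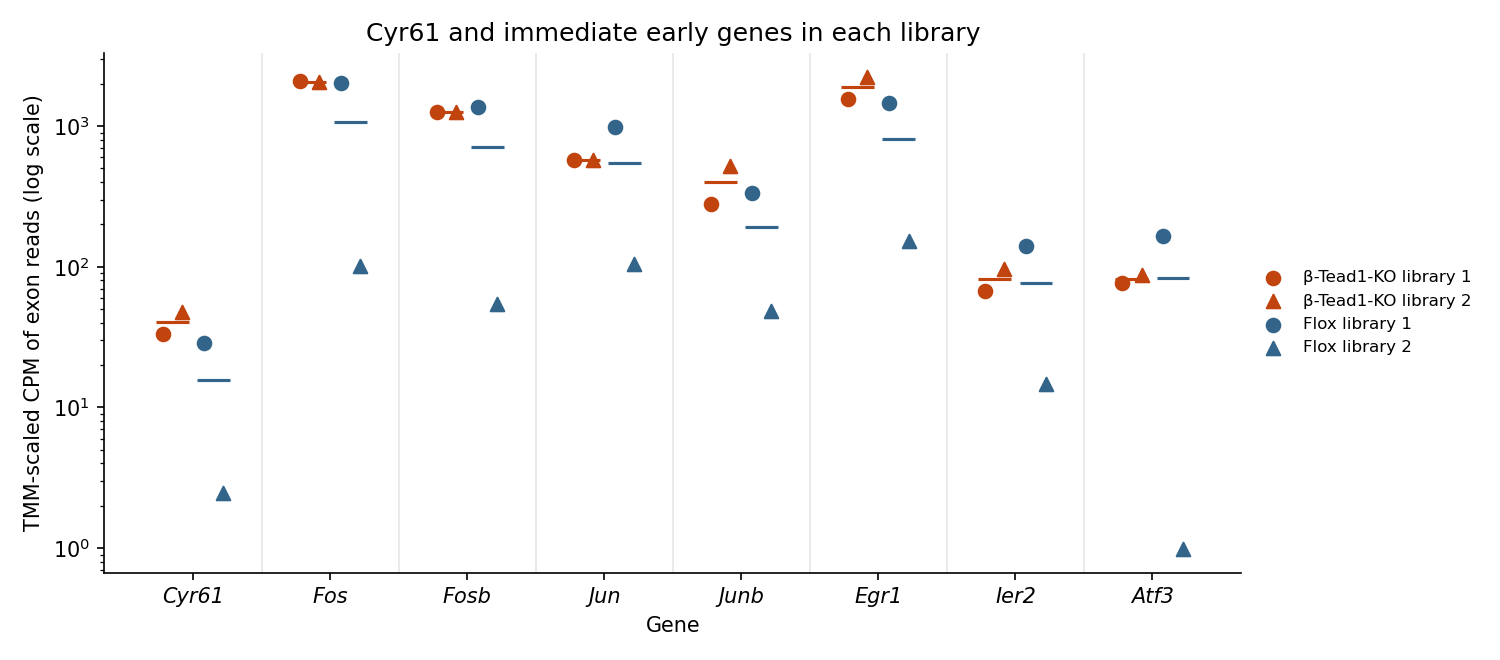
TMM-scaled CPM of exon reads (log scale) of Cyr61 and 7 immediate early genes in each library, with β-Tead1-KO left of Flox, circles for library 1, triangles for library 2 and a bar at the mean of each genotype. Flox library 2 lies below the other 3 libraries for each gene shown, for example at 2.47 CPM for Cyr61 and 0.987 CPM for Atf3.

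Among the membrane proteins, Axl, a receptor tyrosine kinase for the ligand Gas6, had 17.6 and 17.0 CPM in β-Tead1-KO, against 15.4 and 14.2 CPM in Flox. The genotypes did not overlap but the gap was small, with a log2 fold change of 0.22 (standard error 0.18, 95% interval -0.22 to 0.66, edgeR adjusted p = 0.611). Crim1, a transmembrane protein that binds bone morphogenetic proteins, had 14.3 and 19.1 CPM in β-Tead1-KO, against 12.3 and 10.4 CPM in Flox. These did not overlap either, and the log2 fold change of 0.56 (standard error 0.23, 95% interval -0.0075 to 1.12, edgeR adjusted p = 0.303) missed the threshold. Without Flox library 2 the log2 fold changes were 0.16 for Axl and 0.44 for Crim1.

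Nuak2, an AMPK-related kinase that acts on actomyosin contraction, had 30.4 and 28.6 CPM in β-Tead1-KO, against 20.3 and 18.1 CPM in Flox. The genotypes did not overlap, and the log2 fold change of 0.62 (standard error 0.17, 95% interval 0.20 to 1.03, edgeR adjusted p = 0.134) did not pass. Dlc1, a tumour suppressor that is often deleted in liver cancer, had 49.3 and 65.2 CPM in β-Tead1-KO, against 50.7 and 44.6 CPM in Flox. β-Tead1-KO library 1 lay below Flox library 1, and the log2 fold change was 0.26 (standard error 0.19, 95% interval -0.22 to 0.74, edgeR adjusted p = 0.573). Without Flox library 2 the log2 fold changes were 0.54 for Nuak2 and 0.18 for Dlc1.

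Ajuba, a LIM-domain scaffold that binds LATS and restrains it, was scarce, with 12 and 35 exon reads in β-Tead1-KO against 17 and 17 in Flox. The genotypes overlapped. The summed ratio, scaled for depth, was 1.01 with an exact 95% counting interval of 0.635 to 1.62, which covers counting error only, and the log2 fold change was -0.054 (standard error 0.61, 95% interval -1.56 to 1.45, edgeR adjusted p = 0.976). It was 0.25 without Flox library 2.

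Ankrd1, an ankyrin-repeat protein of the nucleus and the sarcomere that depends on YAP in several cell types, was at the limit of detection. It had 2 and 2 exon reads in β-Tead1-KO and 0 and 0 in Flox. All of these lie under the 3 reads that a count of 0 allows, so no fold is given.

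**Figure D3:**
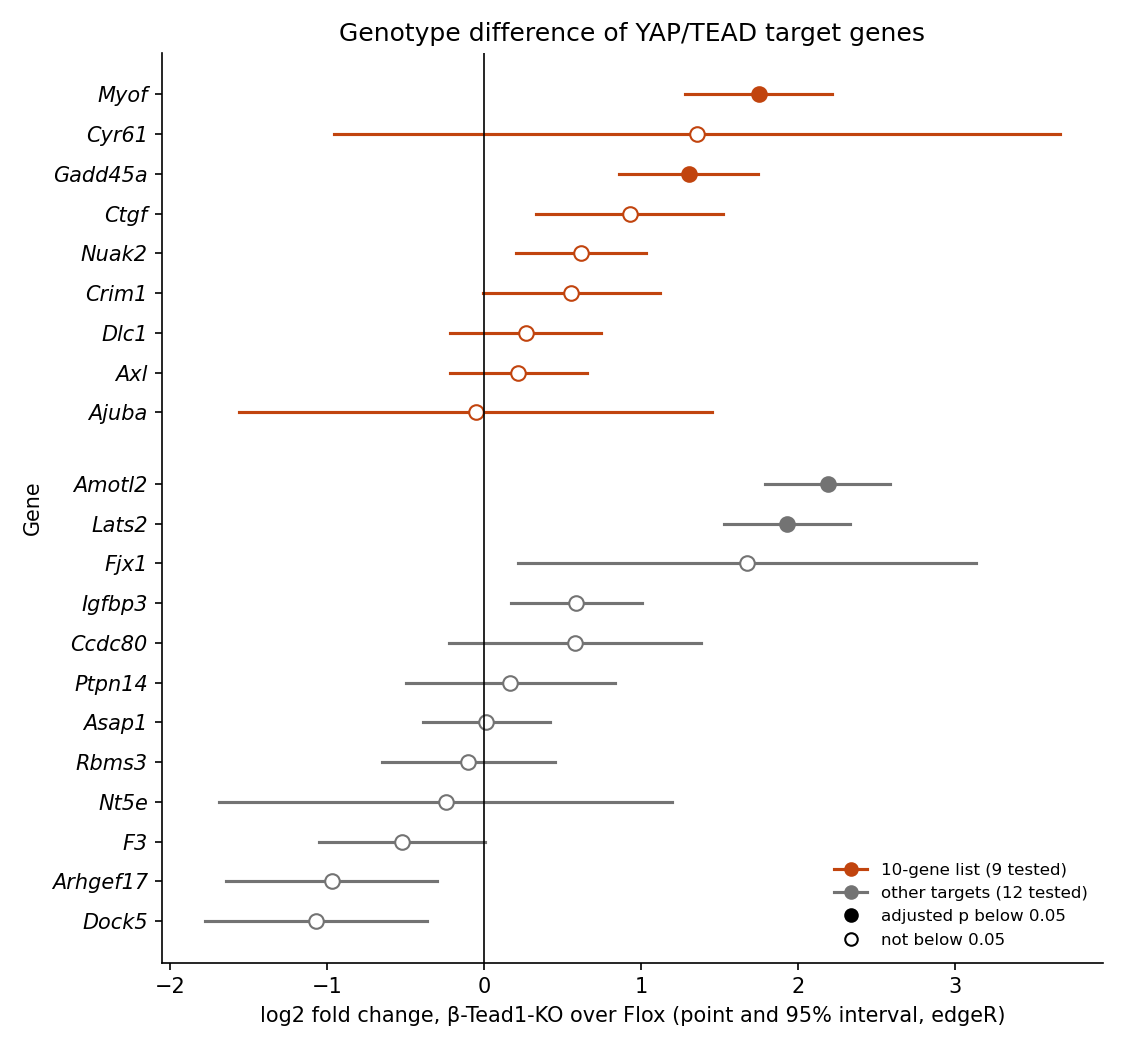
Log2 fold change, β-Tead1-KO over Flox, with its 95% interval from edgeR, for the 9 tested genes of the list (upper block) and 12 other YAP/TEAD targets (lower block); filled points passed at an adjusted p below 0.05. Myof, Gadd45a, Amotl2 and Lats2 are filled, and the widest intervals in the upper block are those of Cyr61 and Ajuba.

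Levels of different genes were set side by side per kilobase of exon, as RPKM. In β-Tead1-KO islets Cyr61 had 16.4 and 23.6 RPKM, and the mean level was 13.8 ± 0.988 RPKM for Gadd45a and 7.53 ± 0.330 RPKM for Nuak2 (SD, n = 2). Myof at 4.07 ± 0.481, Dlc1 at 3.90 ± 0.765, Ctgf at 3.87 ± 0.0710 and Axl at 3.43 ± 0.0847 RPKM followed. Of these Myof, Dlc1 and Ctgf did not differ beyond their spread, and Axl lay within the spread of Dlc1. Crim1 at 2.79 ± 0.567, Ajuba at 0.264 ± 0.157 and Ankrd1 at 0.0467 RPKM were the lowest. No SD is given for Ankrd1, which rests on 2 and 2 exon reads. In Flox islets Cyr61 had 14.3 and 1.22 RPKM, and the mean level was 5.60 ± 0.00710 RPKM for Gadd45a and 4.90 ± 0.391 RPKM for Nuak2 (SD, n = 2). Dlc1 was at 3.24 ± 0.292, Axl at 2.95 ± 0.165, Ctgf at 2.04 ± 0.428, Crim1 at 1.89 ± 0.229, Myof at 1.21 ± 0.0571 and Ajuba at 0.284 ± 0.0827 RPKM. By level, Myof thus stood beside Dlc1 and Ctgf in β-Tead1-KO, and below Crim1 in Flox.

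The same genes were also measured in other classes of reads. On exon-exon junction reads, which come from spliced RNA, 2 of 8 tested genes passed, again Myof and Gadd45a, where 2.08% of all genes were called higher. Their log2 fold changes were 1.81 and 1.39 (edgeR adjusted p = 0.00620 and 0.0369). Junction reads of Myof stood at 56.6 and 49.5 CPM in β-Tead1-KO, against 13.3 and 16.9 CPM in Flox.

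On intron reads, which come largely from unspliced RNA, 7 of the 10 were tested and 0 passed in edgeR, where 0.429% of all genes were called higher; 1 of the 7, Myof, had an unadjusted p below 0.05, as did 9.07% of all genes. Intron reads of Myof stood at 25.4 and 23.3 CPM in β-Tead1-KO, against 9.13 and 11.9 CPM in Flox, a log2 fold change of 1.21 (standard error 0.40, edgeR adjusted p = 0.329). For Gadd45a, with 18 and 75 intron reads in β-Tead1-KO and 15 and 20 in Flox, the log2 fold change was 0.74 (standard error 0.61). Of the 7, Axl alone had a negative intron value, -0.43 (standard error 0.59).

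**Figure D4:**
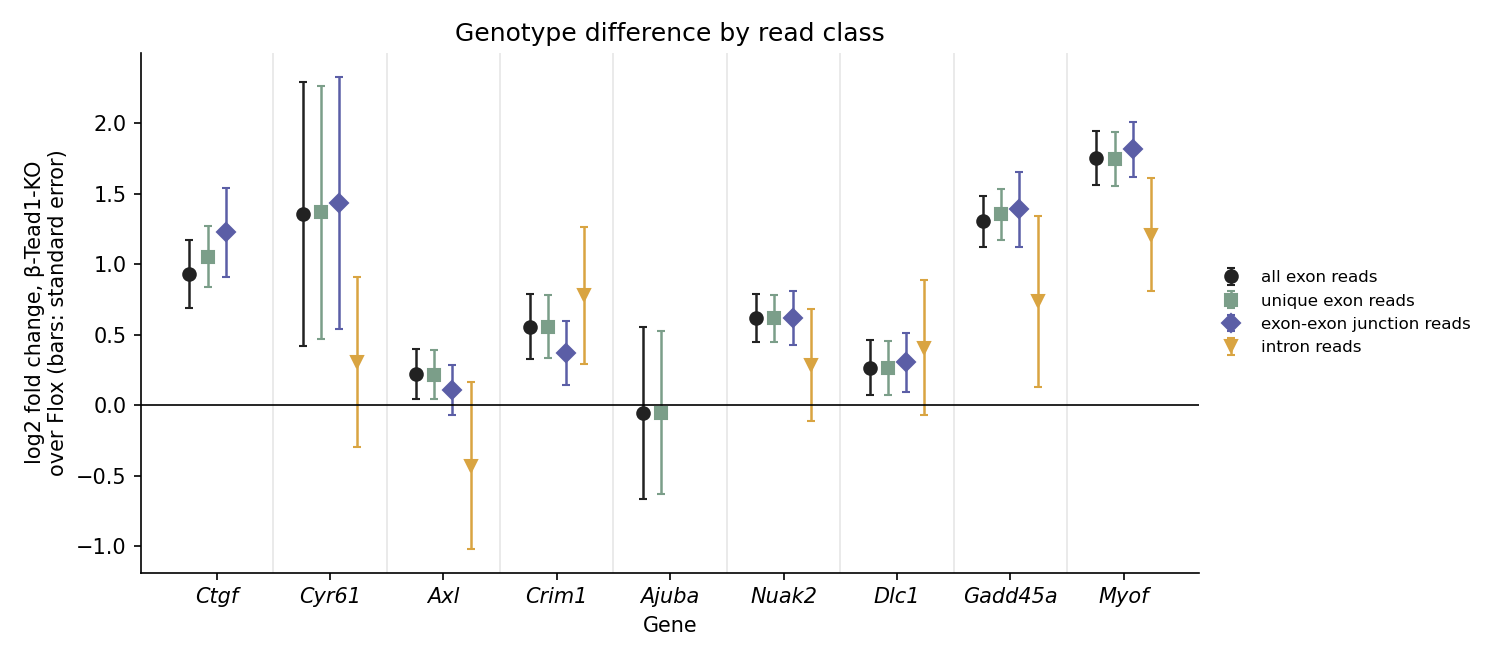
Log2 fold change, β-Tead1-KO over Flox, of 9 target genes on all exon reads, unique exon reads, exon-exon junction reads and intron reads, with standard errors from edgeR as bars; a missing point means that the gene did not pass the filter on low counts in that class. Myof is at 1.75 on exon reads, 1.81 on junction reads and 1.21 on intron reads.

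A set of 13 other YAP and TAZ targets, the rest of a signature from the literature, lay on both sides of 0. Of 12 that were tested, Amotl2 and Lats2 rose and none fell in edgeR, where 1.76% of all tested genes were called higher and 1.6% lower. The median log2 fold change of the 12 was 0.092. Amotl2, an angiomotin that holds YAP outside the nucleus, had 90.0 and 101 CPM in β-Tead1-KO, against 20.2 and 21.5 CPM in Flox (log2 fold change 2.19, standard error 0.16, edgeR adjusted p = 0.00469). Lats2, the kinase that phosphorylates YAP, had 48.0 and 48.3 CPM in β-Tead1-KO, against 13.1 and 12.1 CPM in Flox (log2 fold change 1.93, standard error 0.16, edgeR adjusted p = 0.00640). The call of Lats2 was lost in edgeR without β-Tead1-KO library 1 or 2 (adjusted p = 0.0540 and 0.0637), and on intron reads its log2 fold change was 1.09 (edgeR adjusted p = 0.410). Amotl2 kept its call without any 1 library and missed on intron reads (log2 fold change 2.35, edgeR adjusted p = 0.0622). Of the 4 targets called over both lists, Amotl2 and Lats2 act against YAP.

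At the other end of these targets, Arhgef17 had 109 and 111 CPM in β-Tead1-KO, against 159 and 271 CPM in Flox (log2 fold change -0.97, edgeR adjusted p = 0.143). Dock5, a Rac exchange factor, had 6.63 and 7.24 CPM in β-Tead1-KO, against 11.1 and 18.1 CPM in Flox (log2 fold change -1.07, edgeR adjusted p = 0.130). DESeq2 called 5 of the 12, with Igfbp3 also higher and Arhgef17 and Dock5 lower. Among all genes it called 3.76% higher and 3.68% lower. Arhgef17 and Dock5 were highest in Flox library 2, and without it their log2 fold changes were -0.54 and -0.68.

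The factors that act on these genes were measured in the same libraries. Yap1 rose, with 21.0 and 23.5 CPM in β-Tead1-KO, against 3.85 and 5.01 CPM in Flox (log2 fold change 2.33, standard error 0.23, edgeR adjusted p = 0.00930). Without β-Tead1-KO library 1 or 2 its log2 fold change was 2.44 and 2.27, and the call was lost in edgeR (adjusted p = 0.0550 and 0.0761). None of Wwtr1 (TAZ), Tead1, Tead2, Tead3, Tead4 and Vgll4 passed, with log2 fold changes of 0.20 to 0.54.

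Markers of other cells moved in part with the genotype. Of 10 mesenchymal markers, Col1a1 and Col1a2 rose and none fell (edgeR adjusted p = 0.0496 and 0.0388). Among all tested genes, edgeR called 1.76% higher and 1.6% lower. The 10 markers summed to 323 and 293 CPM in β-Tead1-KO, against 248 and 206 CPM in Flox. Their median log2 fold change was 1.19. In 8 of the 10 both β-Tead1-KO libraries lay above both Flox libraries, as in 23.9% of all tested genes. Of the 10, DESeq2 called 5 and limma-voom 1 higher, against 3.76% and 1.37% of all genes. The pericyte marker Rgs5 made up most of that sum, with 175 and 174 CPM in β-Tead1-KO, against 174 and 146 CPM in Flox. Lum had a log2 fold change of 2.24, Pdgfra 1.82, Dcn 1.56 and Col3a1 1.24, and none of these passed in edgeR. Pdgfrb was at 0.40, Rgs5 at 0.12, Acta2 at 0.0015 and Cspg4 at -0.63. In Flox, Dcn had 14.6 and 2.68 CPM and Lum 1.72 and 0.353 CPM, the lower in library 2. Of 8 endothelial markers 0 passed in edgeR and in DESeq2, and 1 had an unadjusted p below 0.05, where 16.8% of all tested genes did. The log2 fold changes of all 8 were positive, with a median of 0.16. In 6 of the 8 both β-Tead1-KO libraries lay above both Flox libraries, an order found in 23.9% of all tested genes. The 8 summed to 635 and 626 CPM in β-Tead1-KO, against 579 and 564 CPM in Flox. Of 5 tested ductal and 6 tested macrophage markers 0 passed in edgeR. At an unadjusted p below 0.05, 1 and 2 of them differed, where 16.8% of all tested genes did. The 2 macrophage genes moved in opposite directions, C1qa with a log2 fold change of 0.89 and Lyz2 with -1.54. DESeq2 called 0 ductal markers, and 1 macrophage marker higher and 1 lower. Among all genes it called 3.76% higher and 3.68% lower.

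Ductal markers summed to 277 and 234 CPM in β-Tead1-KO, against 216 and 198 CPM in Flox, and macrophage markers to 133 and 112 CPM in β-Tead1-KO, against 95.2 and 92.8 CPM in Flox. No marker of these 4 lists was at 0 reads in any library. Of 4 mesothelial markers, Lrrn4, Upk3b and Wt1 had 0 reads in at least 1 library, and Msln fell to 0.0896 and 0.113 CPM in β-Tead1-KO, against 7.94 and 28.8 CPM in Flox (edgeR adjusted p = 0.0153), a call that limma-voom did not make. The 4 summed to 0.359 and 0.263 CPM in β-Tead1-KO, against 8.22 and 28.8 CPM in Flox. Of 8 β-cell markers Slc2a2 fell and none rose in edgeR, where 1.6% of all genes were called lower. DESeq2 called 5 of the 8 lower, against 3.68% of all genes. Their median log2 fold change was -0.86, and in 6 of the 8 both β-Tead1-KO libraries lay below both Flox libraries, as in 24.2% of all tested genes. The 8, mostly Ins1, Ins2 and Iapp, summed to 210669 and 183486 CPM in β-Tead1-KO, against 216934 and 222173 CPM in Flox. Within that sum the genes differed in direction, and none of these 3 passed in edgeR. Ins1 had 29606 and 29114 CPM in β-Tead1-KO, against 57380 and 63362 CPM in Flox. Iapp went the other way, with 39423 and 31650 CPM in β-Tead1-KO, against 28159 and 17738 CPM in Flox. For Ins2 the genotypes overlapped. The part of these cells in the higher levels of Myof and Gadd45a was not tested.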

How the data were processed

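The authors deposited 1 table per lane with whole-number read counts per gene (exon, unique exon, junction and intron reads), and with their own TPM and RPKM, per the file headers; those TPM and RPKM values were not used. The submitters' processing notes name mm10; the aligner, counter, annotation release and strand setting were not given in the sources used here. RefSeq promoters are of GRCm38.p6, the same build.

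Lanes were summed per library. After filterByExpr (minimum count 10, minimum total count 15), 15014 genes were left. They were scaled with TMM and tested by quasi-likelihood in edgeR 4.0.16 (R 4.3.3), 2-sided, in its bias-adjusted mode, and p-values were adjusted over these genes (Benjamini-Hochberg, threshold 0.05). The bias-adjusted mode was kept from an earlier treatment of these data; the legacy mode, this version's default, was added as an alternative after both counts had been seen. CPM and RPKM printed here were computed from the summed counts and TMM-scaled totals. A standard error is the log2 fold change divided by the root of F. Other alternatives were DESeq2 1.42.0, limma-voom (limma 3.58.1), 2 other filters, each library left out, library number as a block, each lane and other read classes.

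The fit was tested on simulated data. Where simulated spread followed the common trend, false calls stayed near the threshold. Where each gene kept its own estimated spread they exceeded it. The calls, including those near the threshold, are therefore less certain than their adjusted p states. A criterion on a single draw was set first, was not met, and was replaced by averages over repeated draws. The new criterion on false calls used only the draws whose spread followed the common trend.

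The members and lists were chosen with earlier results of these data known. All 10 members, the regulators, and the other targets and paralogs that passed are named by rule; other named genes were chosen after their values were seen. Nothing says that libraries of a genotype came from separate animals.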

Additional observations from a re-analysis of the deposited data

How the results depend on the processing

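Of 131 values of the members under an alternative, 117 kept direction and side of the threshold, 6 lost and 3 gained a call, and 5 changed sign. With a library left out, called members numbered 0 to 3, all called genes 67 to 2359 (504 with all libraries) and called other targets 1 to 5 (2 with all). DESeq2 called 1117 genes and 5 other targets. Intron reads gave 108 genes, 0 members and 0 other targets, and the cause was not tested. With the library number as a replicate block, 1157 genes, the same 2 members and 4 other targets (Amotl2, Lats2, Arhgef17 and Dock5) were called, with edgeR adjusted p = 0.0426 for Arhgef17 and 0.0443 for Dock5. Nov and Tyro3 passed there too (edgeR adjusted p = 0.00151 and 0.0264). Deviations of same-numbered libraries from their genotype means correlated at 0.392, but 2 pairs do not show what a number shares. edgeR's legacy mode, chosen after seeing the data, called 465 genes. Log2 fold changes of members and other targets that changed sign, none past the threshold, were those of Axl (-0.43) and F3 (0.0026) on intron reads, Ajuba with no filter (0.0056) and on lane 1 (0.29), Asap1 (-0.076) and Ptpn14 (-0.11) on lane 2, and Nt5e with limma-voom (0.0022). With a library left out, Ajuba ran from -0.83 to 0.45, Asap1 from -0.074 to 0.12, Nt5e from -0.85 to 0.65, Ptpn14 from -0.030 to 0.39 and Rbms3 from -0.28 to 0.11. Ankrd1 and Ajuba are limited by depth, with 4 and 81 exon reads in all.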

Other observations

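Close relatives of the 10 targets were set beside them. Of 16 such genes 14 were tested, and Wtip alone passed in edgeR, where 1.76% of all genes were called higher. Wtip, which with Ajuba and Limd1 forms the Ajuba family of LIM scaffolds, had 9.55 and 9.35 CPM in β-Tead1-KO, against 3.81 and 3.17 CPM in Flox (log2 fold change 1.43, standard error 0.24, edgeR adjusted p = 0.0397). Limd1 did not pass and had 55.8 and 57.5 CPM in β-Tead1-KO, against 70.4 and 69.8 CPM in Flox. The call of Wtip was lost with limma-voom (adjusted p = 0.0531), on lane 1 (edgeR adjusted p = 0.0507), on intron reads (log2 fold change 1.35, edgeR adjusted p = 0.310) and without either β-Tead1-KO library (edgeR adjusted p = 0.244 and 0.259).

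In the CCN family, Nov had 18.1 and 6.79 CPM in β-Tead1-KO, against 2.18 and 0.635 CPM in Flox (log2 fold change 3.08, standard error 0.69, edgeR adjusted p = 0.0861), which missed the threshold in edgeR and passed in DESeq2 (adjusted p = 7.04e-05). Without Flox library 1 or 2 Nov passed in edgeR as well (log2 fold change 4.29 and 2.51, adjusted p = 0.000258 and 0.00686). With β-Tead1-KO library 1 or 2 left out it did not pass, at 2.25 and 3.65. Among the TAM receptors, Tyro3 had 4.30 and 4.05 CPM in β-Tead1-KO, against 0.789 and 1.41 CPM in Flox (log2 fold change 1.96, edgeR adjusted p = 0.0615; DESeq2 adjusted p = 0.0146). Without Flox library 1 or 2 it was at 1.57 and 2.39 and passed (edgeR adjusted p = 0.0346 and 0.00716). Mertk had 2.55 and 3.64 CPM in β-Tead1-KO, against 3.16 and 3.60 CPM in Flox (log2 fold change -0.12). Gadd45b and Gadd45g had log2 fold changes of 0.55 and -0.65, and neither passed in edgeR (adjusted p = 0.728 and 0.351), but both depended on which Flox library was kept. Gadd45b was 1.68 without Flox library 1, which passed (edgeR adjusted p = 0.0163), -0.059 without Flox library 2 and -0.24 without β-Tead1-KO library 2. Gadd45g was -1.01 without Flox library 2, which passed (edgeR adjusted p = 0.00719), and -0.14 without Flox library 1. The median log2 fold change of the 14 was -0.0018.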
